A study of Mus musculus with 6 samples.

Results

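Profilins, formins, Ena/VASP proteins, WASP and WAVE proteins, ROCK kinases, the Arp2/3 complex and the nucleators Cobl and Spire form the machinery that builds actin filaments. They are described here in whole mouse liver with and without profilin 2. The members were 44 genes named from a fixed list. A gene was taken where the platform annotation gave a row exactly 1 gene symbol, and the row with the highest mean over all arrays stood for it. This left 38 measured genes among the 22180 genes tested. Fmnl3, Cyfip1, Rock2, Arpc3 and Actr2 had no row listed under their names, and Arpc1b was named only in 2 rows that carry other genes as well, so these 6 were not analysed here.

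The series holds 6 Affymetrix arrays of liver from C57BL/6 mice, 3 labelled wild type and 3 labelled Pfn2-/-. Replicates 1, 2 and 3 of each genotype came from animals of 9, 8.5 and 8 months, and the labels call them independent biological replicas. The sources used here do not give the sex of the animals or how the Pfn2 allele was made, and the labels name no treatment. The value of a gene on an array is an expression value on the log2 scale, made by RMA, a method that corrects background, sets arrays to a common distribution and summarises the probes of a row. Probes differ in brightness, so such a value follows 1 gene across arrays and does not set the amounts of different genes against each other.

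As background, profilin binds actin monomers, helps it to exchange its nucleotide and hands it to proteins with proline-rich stretches. Formins and Ena/VASP proteins use such stretches to lengthen straight filaments. The Arp2/3 complex starts branches from existing filaments once WASP or the WAVE complex has activated it, and ROCK kinases act on contraction and filament stability. Profilin 1 is found in almost all cells, profilin 2 is known mainly from brain, where it binds the WAVE complex and ROCK, and profilins 3 and 4 are known from testis.

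No member differed between the genotypes by the test. With limma and Benjamini-Hochberg adjustment over all genes, 0 of 38 members passed an adjusted p of 0.05, where 0% of all genes tested passed (smallest adjusted p = 0.92 among members and 0.094 among all genes). At an unadjusted p under 0.05 there were 0 of 38 members, against 5.29% of all genes tested. The groups did not overlap for 3 members (7.89%), Fmn2, Fhod1 and Fhod3, against 9.85% of all genes tested. The differences, Pfn2-/- minus wild type, ran from -0.37 for Wasf1 to 0.26 for Fhod3 on the log2 scale. Their median size without regard to sign was 0.11, the same as over all genes. Differences exceeded their own standard error (SE) in 13 of 38 members (34.2%), against 35.5% of all genes tested.

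The intervals bound what could have gone unseen. The 95% confidence interval of the difference lay inside a 2-fold change in either direction for 38 of 38 members, against 98% of all genes tested, and inside a 1.5-fold change (0.58 on the log2 scale) for 32 of 38, against 81.7%. The 6 members whose intervals reached past 1.5-fold were Diaph3, Fmnl1, Enah, Wasf1, Cyfip2 and Abi2. The outermost bounds were -0.75 for Wasf1 and 0.69 for Diaph3. These bounds hold for the row values. RMA compresses changes of dim rows, and a dim row can hardly show a lower value.

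**Figure D1:**
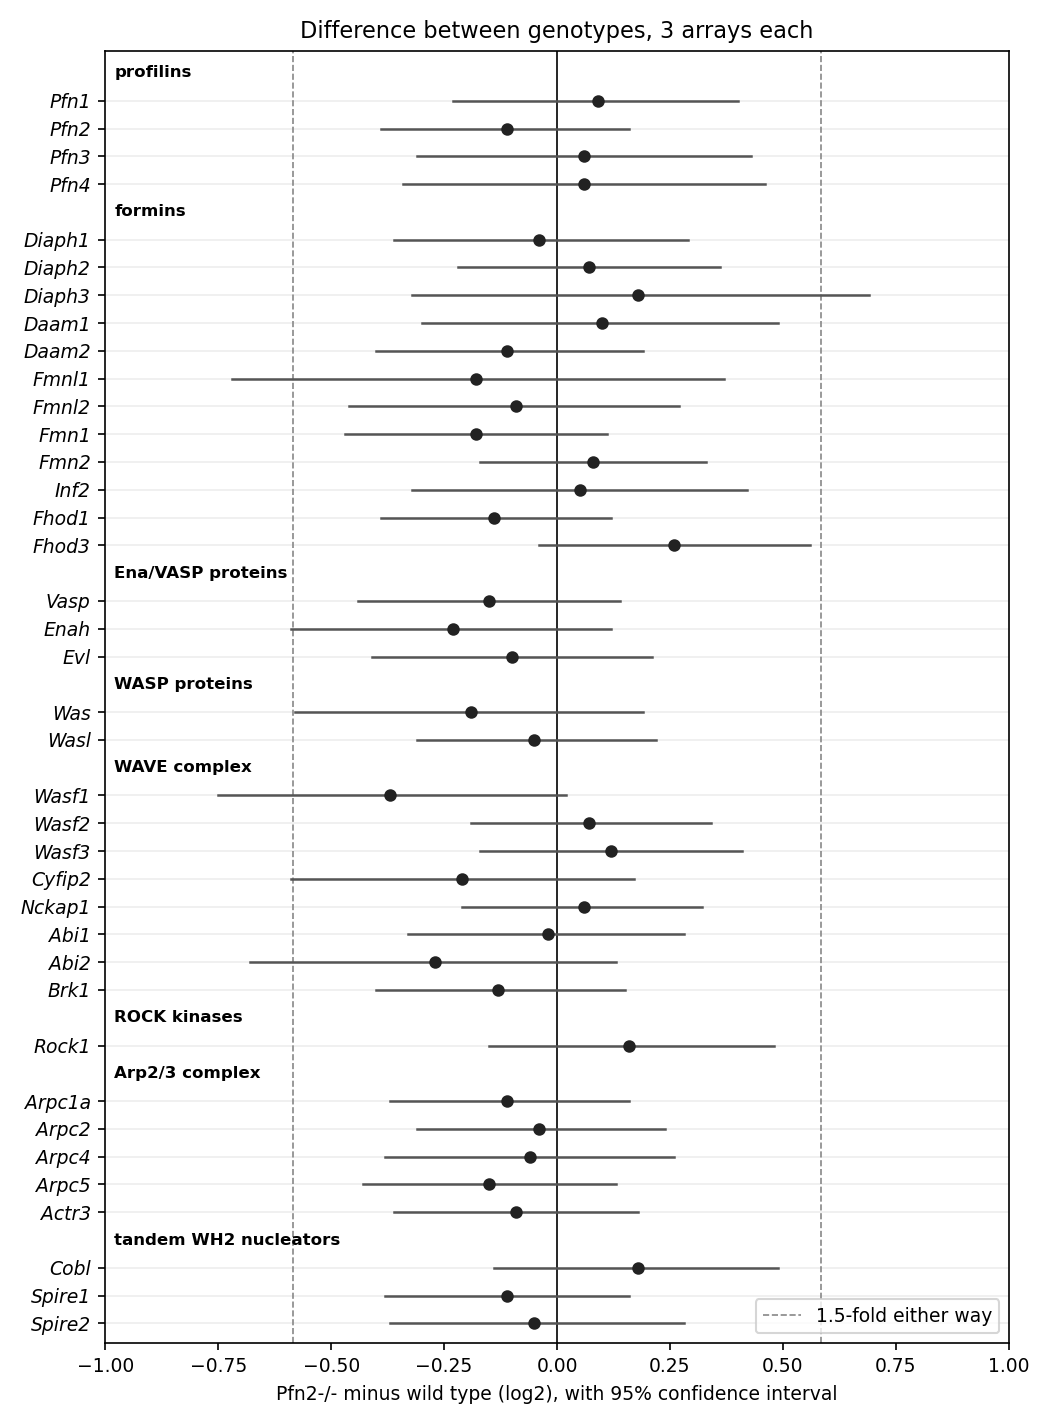
Difference between genotypes for each measured gene, grouped by role. The horizontal axis is Pfn2-/- minus wild type on the log2 scale (3 arrays each), points are differences and bars their 95% confidence intervals from limma, and dashed lines mark a 1.5-fold change. All 38 intervals include 0, and 6 reach past a dashed line.

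How bright a row was decides how much it can show. Over all rows of an array the lower quartile was 3.51 to 3.57, the median 4.36 to 4.41 and the upper quartile 5.81 to 5.87. The rows of 18 members lay above the upper quartile on every array. They included 5 of 5 measured Arp2/3 genes, Pfn1, the formin genes Diaph1, Diaph2, Daam1 and Inf2, Wasl, Wasf2, Nckap1, Abi1, Brk1, Rock1, Evl and Cobl. A further 10 lay above the median on every array. Another 6 crossed the median between arrays (Pfn3, Pfn4, Diaph3, Daam2, Wasf1 and Spire1), and Pfn2, Enah and Wasf3 lay below it on every array. Fmn2 lay below the lower quartile on every array.

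**Figure D2:**
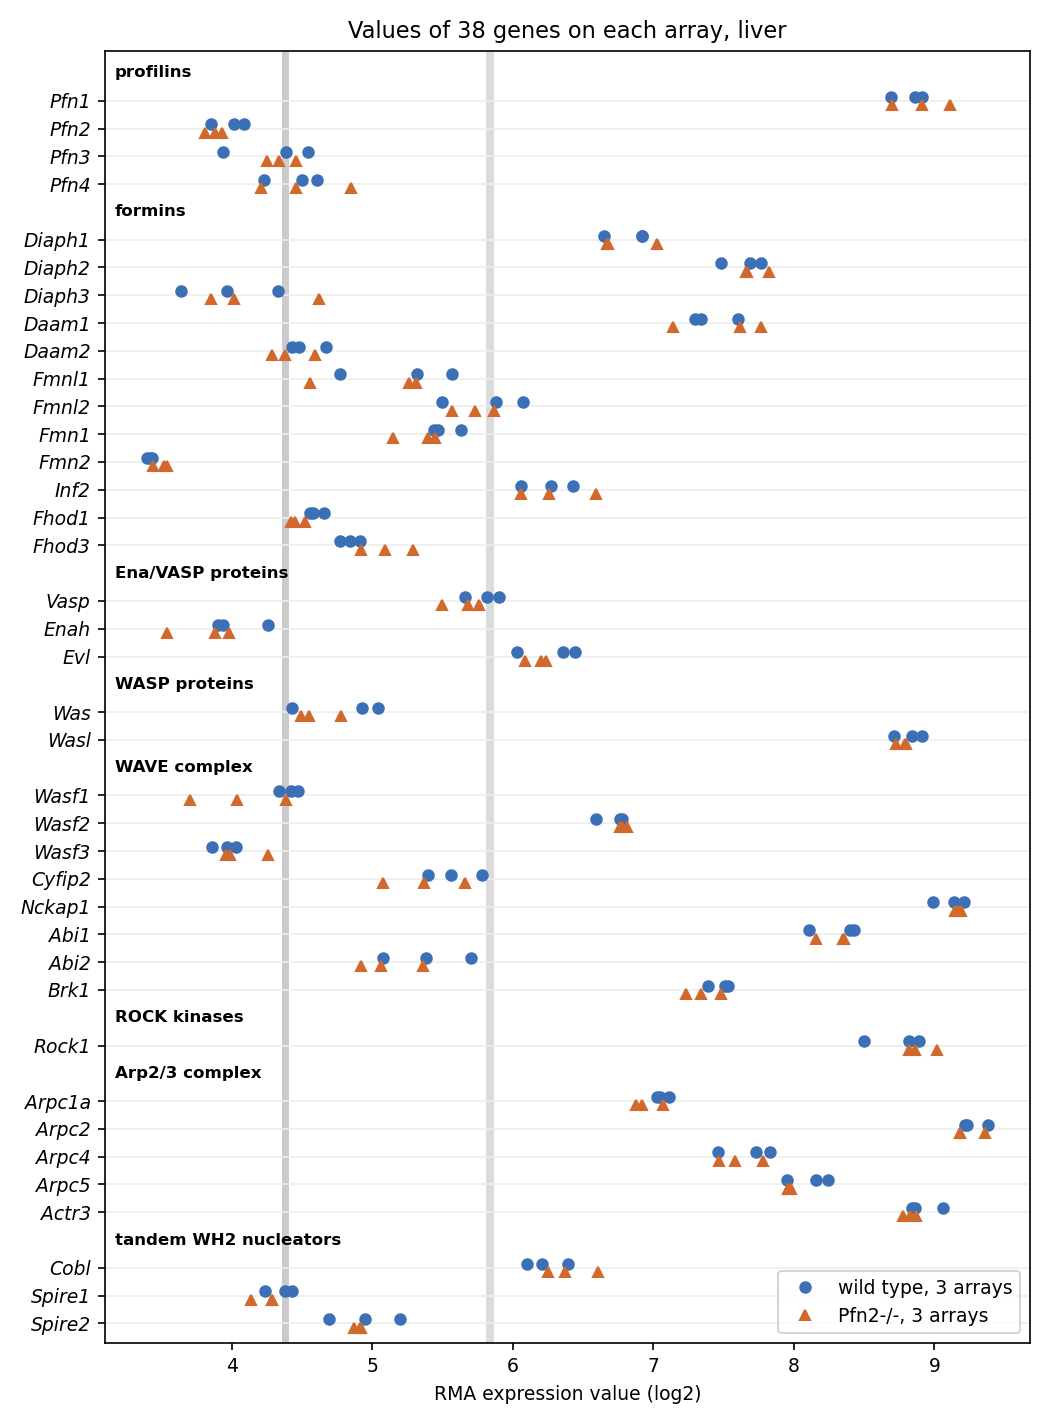
RMA expression value (log2, horizontal axis) of each measured gene on each of 6 arrays, circles for wild type and triangles for Pfn2-/-, grouped by role. The dark and light grey bands span the medians (4.36 to 4.41) and upper quartiles (5.81 to 5.87) of all rows over the arrays. The ranges of circles and triangles overlap for all genes except Fmn2, Fhod1 and Fhod3.

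Among the profilins, the row of Pfn2 itself was dim in both genotypes. It lay at 4.02, 3.85 and 4.09 in wild type against 3.88, 3.81 and 3.93 in Pfn2-/-. The highest Pfn2-/- array was above the lowest wild-type array, so the groups overlapped. The difference was -0.11 (SE 0.12, 95% confidence interval -0.39 to 0.16). Because the sources used here do not say which part of the transcript this row covers, it cannot serve as a check of the genotype labels. Pfn1 lay at 8.86, 8.69 and 8.91 in wild type against 8.91, 8.70 and 9.11 in Pfn2-/-, a difference of 0.09 (SE 0.14, interval -0.23 to 0.40). Both genotypes had their lowest Pfn1 value in replicate 2. The interval of Pfn1 therefore holds no increase of 1.5-fold or more in the arrays of animals labelled as lacking profilin 2.

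Pfn3 lay at 4.39, 3.94 and 4.54 in wild type against 4.46, 4.34 and 4.25 in Pfn2-/- (difference 0.06, SE 0.16). Pfn4 lay at 4.50, 4.23 and 4.61 in wild type against 4.46, 4.85 and 4.21 in Pfn2-/- (difference 0.06, SE 0.18). Both genes overlapped between genotypes, and the signs of Pfn1, Pfn3 and Pfn4 turned when single arrays were left out. Averaged over the 4 profilins, each gene centred on its own mean over the arrays, wild-type replicates 1, 2 and 3 lay at 0.05, -0.22 and 0.14 and Pfn2-/- replicates at 0.03, 0.03 and -0.02. The wild-type arrays thus spanned all the Pfn2-/- arrays.

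The promoters of Pfn2 and Pfn1 are shown because the study turns on the first gene and the second is the profilin with a bright row. They are reference sequence from RefSeq on GRCm38.p6, the 250 bases before the most upstream listed start, and each is printed 5′ to 3′ on the gene's strand, which is the minus strand for both, with CpG dinucleotides in capitals. Pfn2 lies at chr3:57847758-57848007 and Pfn1 at chr11:70654651-70654900.
Pfn2: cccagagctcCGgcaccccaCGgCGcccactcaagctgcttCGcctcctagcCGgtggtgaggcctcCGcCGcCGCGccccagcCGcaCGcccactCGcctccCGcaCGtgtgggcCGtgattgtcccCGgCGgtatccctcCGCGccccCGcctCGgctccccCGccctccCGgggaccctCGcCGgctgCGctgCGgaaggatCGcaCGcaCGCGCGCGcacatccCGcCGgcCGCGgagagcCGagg
Pfn1: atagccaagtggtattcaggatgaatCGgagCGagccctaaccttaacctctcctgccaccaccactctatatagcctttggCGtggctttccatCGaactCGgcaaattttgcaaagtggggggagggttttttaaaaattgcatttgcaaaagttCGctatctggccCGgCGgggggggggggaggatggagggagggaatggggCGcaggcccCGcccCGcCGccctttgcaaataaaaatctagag
The Pfn2 window held 38 CpG dinucleotides and the Pfn1 window 12.

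Over the 32 members with a promoter entry the median was 16 CpG dinucleotides in 250 bases, against 10 over 16990 genes tested. The members without an entry were Diaph1, Fhod3, Abi2, Nckap1, Rock1 and Spire1. The letters TATAAA, searched on both strands, were in 0 of 32 member promoters and in 11.9% of the promoters of genes tested. The CArG box, the motif of serum response factor, was in the window of 1 member, Arpc4 (3.12%), against 1.29%. These counts describe sequence alone, and no binding or methylation was measured.

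Formins lengthen straight filaments from profilin-bound actin. Of 13 listed formin genes 12 were measured, and their differences ran from -0.18 to 0.26 with a median of 0.01. Fhod3, a formin known from muscle, had the smallest p of the family. It lay at 4.77, 4.91 and 4.84 in wild type against 4.92, 5.09 and 5.29 in Pfn2-/-, so 4.91 and 4.92 were the nearest values of the groups. The difference was 0.26 (SE 0.13, interval -0.04 to 0.56, limma adjusted p = 0.94). Its relative Fhod1 lay at 4.56, 4.58 and 4.66 in wild type against 4.45, 4.42 and 4.52 in Pfn2-/-, a difference in the other direction of -0.14 (SE 0.11, interval -0.39 to 0.12). Fmn2 lay at 3.43, 3.42 and 3.40 and at 3.52, 3.44 and 3.54, a difference of 0.08 (SE 0.11) in a row below the lower quartile. All 3 formins whose groups did not overlap had differences within a 1.5-fold change.

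The diaphanous formins had bright rows for Diaph1 and Diaph2. Diaph1 lay at 6.92, 6.92 and 6.65 in wild type against 6.68, 6.67 and 7.03 in Pfn2-/- (difference -0.04, SE 0.15). Diaph2 lay at 7.69, 7.77 and 7.48 and at 7.67, 7.66 and 7.82 (0.07, SE 0.13). In both genes the lowest value was on wild-type replicate 3 and the highest on Pfn2-/- replicate 3. Diaph3, known from dividing cells, varied more, at 4.33, 3.97 and 3.64 against 3.85, 4.02 and 4.62 (0.18, SE 0.23). Leaving out single arrays turned the sign of each of these 3.

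Daam1, a formin of Wnt signalling, had means of 7.41 in wild type and 7.51 in Pfn2-/- (0.10, SE 0.18), and Daam2 had a difference of -0.11 (SE 0.13). Inf2, a formin of the endoplasmic reticulum that also severs filaments, lay at 6.43, 6.27 and 6.06 against 6.59, 6.26 and 6.06 (0.05, SE 0.16). Fmnl2 had a difference of -0.09 (SE 0.16). Fmn1 had 2 rows. The brighter gave -0.18 (SE 0.13) and the other, with a mean of 3.71, gave 0.03 (SE 0.15). The sign of Daam1, Inf2 and Fmnl2 turned without single arrays.

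Fmnl1 and Was are known from blood cells, where they serve leukocyte movement and uptake, and both varied from array to array within a genotype. Fmnl1 lay at 5.32, 5.57 and 4.77 in wild type against 5.26, 5.31 and 4.56 in Pfn2-/- (difference -0.18, SE 0.24), with the highest value on wild-type replicate 2 and the lowest on Pfn2-/- replicate 3. Was, the WASP protein itself, lay at 5.04, 4.93 and 4.43 in wild type against 4.55, 4.78 and 4.49 in Pfn2-/- (-0.19, SE 0.17). Wild-type replicate 3 was the lowest array of Was, and the groups overlapped because of it. In whole tissue, fewer cells of a type and less RNA per cell cannot be told apart.

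Markers of leukocytes also varied from array to array. Of 10 listed, 9 were measured. At an unadjusted p under 0.05 there were 0 of the 9, against 5.29% of all genes tested. Differences lay below 0 for 7, against 49.9%. The groups did not overlap for 1, Laptm5 (-0.20, SE 0.12), against 9.85%. The lowest differences were those of Cd3g (-0.43, SE 0.41) and Cd79a (-0.39, SE 0.18). The mean deviation of the markers was -0.15, 0.49 and -0.13 in wild-type replicates 1, 2 and 3 and -0.02, 0.06 and -0.24 in Pfn2-/- replicates. That of Fmnl1 and Was was 0.26, 0.33 and -0.32 in wild type and -0.01, 0.13 and -0.39 in Pfn2-/-. On wild-type replicate 1 these 2 genes thus lay above 0 and the markers below. The summed level of the markers, taken on the linear scale, was 8.37 to 9.04 in wild type and 8.31 to 8.64 in Pfn2-/- after log2. Ptprc, the common leukocyte antigen CD45, lay at 6.58, 7.20 and 6.12 and at 6.64, 6.89 and 6.37. The B-cell markers Cd79a and Ms4a1 had values of 3.66 to 4.74 over the arrays. The row of Ms4a1 lay below the median on every array, and that of Cd79a crossed it. The part of these cells in the values of Fmnl1 and Was was not tested. Wasl, which encodes N-WASP, the widely expressed relative of WASP, varied little. It lay at 8.91, 8.71 and 8.84 in wild type against 8.73, 8.79 and 8.80 in Pfn2-/- (-0.05, SE 0.12).

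Ena/VASP proteins protect growing filament ends and bind profilin through proline-rich stretches. All 3 genes had differences below 0, and none passed the test. Enah, which had the smallest p of them, lay at 3.94, 3.90 and 4.26 in wild type against 3.54, 3.98 and 3.88 in Pfn2-/- (-0.23, SE 0.16, interval -0.59 to 0.12), in a row below the median on every array. Vasp lay at 5.82, 5.90 and 5.66 against 5.76, 5.50 and 5.68 (-0.15, SE 0.13), and Evl at 6.36, 6.44 and 6.03 against 6.09, 6.24 and 6.20 (-0.10, SE 0.14). The groups overlapped for each of them. Averaged over the 3 genes, the deviation was 0.09, 0.13 and 0.03 in wild-type replicates and -0.16, -0.05 and -0.03 in Pfn2-/- replicates, so these averages did not overlap. They rest on 3 genes measured on the same arrays and were given no test. Taken singly, 9.85% of all genes tested had groups that did not overlap, a share that does not cover averages.

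Of the 9 listed genes of the WAVE complex, which joins Rac signals to Arp2/3, 8 were measured. Their differences ran from -0.37 to 0.12, with a median of -0.08. Wasf1 encodes WAVE1, the form known best from brain, and had the smallest p of all 38 members. It lay at 4.42, 4.47 and 4.34 in wild type against 4.04, 3.70 and 4.39 in Pfn2-/-. Pfn2-/- replicates 1 and 2 were below all wild-type arrays and replicate 3 was above 1 of them. The difference was -0.37 (SE 0.17, interval -0.75 to 0.02), with an unadjusted p of 0.058 and an adjusted p of 0.92 by limma. The difference was -0.54 (adjusted p = 0.732) without Pfn2-/- replicate 3 and -0.20 at its smallest when another array was left out. The row crossed the array medians, so the size is not exact.

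The other WAVE protein genes had differences above 0. Wasf2, the form known from most tissues, lay at 6.76, 6.78 and 6.59 in wild type against 6.78, 6.81 and 6.76 in Pfn2-/- (0.07, SE 0.12), and Wasf3, whose row was dim, differed by 0.12 (SE 0.13). Whether Wasf1 differed from Wasf2 in its response was not tested.

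Among the other subunits, Nckap1, Abi1 and Brk1 had rows above the upper quartile on every array, and Abi2 and Cyfip2 did not. Nckap1 lay at 9.21, 8.99 and 9.14 in wild type against 9.19, 9.17 and 9.15 in Pfn2-/- (0.06, SE 0.12). Abi1 lay at 8.40, 8.43 and 8.11 against 8.16, 8.36 and 8.35 (-0.02, SE 0.13), and its sign turned without single arrays, as did that of Nckap1. Brk1, the smallest subunit, lay at 7.53, 7.51 and 7.39 against 7.48, 7.23 and 7.34 (-0.13, SE 0.12). Abi2, a paralog of Abi1, lay at 5.38, 5.70 and 5.08 in wild type against 5.06, 5.36 and 4.92 in Pfn2-/- (-0.27, SE 0.18, interval -0.68 to 0.13), and Cyfip2 differed by -0.21 (SE 0.17, interval -0.59 to 0.17). The intervals of Abi2 and Cyfip2 allowed values lower by 1.5-fold or more, and those of Nckap1, Abi1 and Brk1 did not. With single arrays left out the difference ran from -0.43 to -0.12 for Abi2 and from -0.36 to -0.06 for Cyfip2.

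Of the ROCK kinases only Rock1 was measured. It lay at 8.89, 8.82 and 8.50 in wild type against 8.86, 9.02 and 8.82 in Pfn2-/-, a difference of 0.16 (SE 0.14, interval -0.15 to 0.48). Wild-type replicate 3 stood below the other 5 arrays, and without it the difference was 0.04.

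The Arp2/3 complex consists of the actin-related proteins Actr2 and Actr3 and the Arpc subunits. Of 8 listed genes 5 were measured, all bright, and all had differences below 0, from -0.15 to -0.04 with a median of -0.09. None passed the test. Arpc5 had the smallest p of them and lay at 8.16, 8.24 and 7.95 in wild type against 7.96, 7.96 and 7.98 in Pfn2-/- (-0.15, SE 0.12, interval -0.43 to 0.13). The Pfn2-/- arrays were nearly equal, and wild-type replicate 3 lay just below them. A second, dimmer row of Arpc5 gave -0.19 (SE 0.15).

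Actr3 lay at 8.84, 9.06 and 8.86 in wild type against 8.78, 8.83 and 8.87 in Pfn2-/- (-0.09, SE 0.12). Arpc2, a core subunit, lay at 9.22, 9.38 and 9.23 against 9.18, 9.18 and 9.36 (-0.04, SE 0.12). Arpc1a lay at 7.11, 7.05 and 7.03 against 6.92, 7.07 and 6.88 (-0.11, SE 0.12), and Arpc4 at 7.83, 7.46 and 7.73 against 7.78, 7.47 and 7.58 (-0.06, SE 0.14). The signs of Arpc2 and Arpc4 turned when single arrays were left out. Averaged over the 5 genes, the deviation was 0.07, 0.07 and -0.01 in wild-type replicates 1, 2 and 3 and -0.04, -0.06 and -0.03 in Pfn2-/- replicates. All 3 wild-type averages were above all 3 Pfn2-/- averages, with -0.01 and -0.03 as the nearest. These averages, over 5 genes, were likewise given no test. Apart from the Ena/VASP and Arp2/3 averages, those of all other role groups overlapped between genotypes. Of the further lists described below, the averages of 5 cholangiocyte markers and of 2 other formin genes did not overlap either, both higher in Pfn2-/-. Taken singly, 9.85% of all genes tested had groups that did not overlap. That share is for single genes, and none was computed for averages.

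Cobl and the Spire proteins start filaments by lining up actin monomers on repeated WH2 domains. Cobl lay at 6.39, 6.21 and 6.10 in wild type against 6.37, 6.25 and 6.61 in Pfn2-/- (0.18, SE 0.14). Spire1 lay at 4.38, 4.43 and 4.24 against 4.14, 4.29 and 4.29 (-0.11, SE 0.12), and Spire2 differed by -0.05 (SE 0.15), with a sign that turned without single arrays. The groups overlapped for all 3.

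As a set, 24 of 38 members (63.2%) had a difference below 0, against 49.9% of all genes tested, and the median difference was -0.06 against 0.00 over all genes. Members share arrays and are not independent, so the share is a description. The average deviation of the 38 members was 0.08, 0.04 and -0.06 in wild-type replicates 1, 2 and 3 and -0.03, -0.01 and -0.03 in Pfn2-/- replicates. Wild-type replicate 3 thus lay below all Pfn2-/- arrays and the other wild-type arrays above them. Of 10 hepatocyte markers 10 also had differences below 0, with a median of -0.11 and a summed level of 14.84 to 15.06 in wild type and 14.81 to 14.87 in Pfn2-/- after log2. At an unadjusted p under 0.05 there was 1 of these 10, the urea cycle gene Ass1 (-0.49, SE 0.18, limma adjusted p = 0.915), against 5.29% of all genes tested. Groups did not overlap for 2 of the 10, Ass1 and the albumin gene Alb (-0.03, SE 0.11), against 9.85%. The nearest values of Alb were 12.98 and 12.97. Of the other hepatocyte markers, Tat, Pck1, Apoa1, Cps1 and Hnf4a differed by -0.27, -0.22, -0.18, -0.12 and -0.10. Apoa2, Ttr and Serpina1a differed by -0.03, -0.03 and -0.02. Differences also lay below 0 for 7 of 8 endothelial markers (median -0.10) and 7 of 8 Kupffer cell or macrophage markers (-0.08). The same held for 6 of 8 stellate cell or fibroblast markers (-0.10), 5 of 5 markers of dividing cells (-0.12) and 4 of 6 muscle markers (-0.12). Fewer lay below 0 among neutrophil markers, 2 of 6 (median 0.12), and erythroid markers, 1 of 2 (0.03). In these lists only Col3a1 (stellate, -0.30, SE 0.13, limma adjusted p = 0.92) and Myh11 (muscle, -0.41, SE 0.16, limma adjusted p = 0.915) were at an unadjusted p under 0.05, against 5.29% of all genes tested. The groups did not overlap for Col3a1 alone in them, against 9.85%. Of 5 cholangiocyte markers 1 was below 0 (median 0.05). At an unadjusted p under 0.05 there were 2 of the 5, Sox9 (0.58, SE 0.20, limma adjusted p = 0.895) and Cftr (0.33, SE 0.13, limma adjusted p = 0.917), against 5.29% of all genes tested. The groups did not overlap for these 2, against 9.85%. The row of Cftr, at 2.45 to 3.09, lay below the lower quartile on every array. The other cholangiocyte markers, Krt7, Krt19 and Epcam, differed by 0.02, 0.05 and -0.10. The part of these shifts in the members' values was not tested. The spread within genotypes was like that of other genes, with a median SD of 0.16 for the members and 0.17 for all genes tested.

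**Figure D3:**
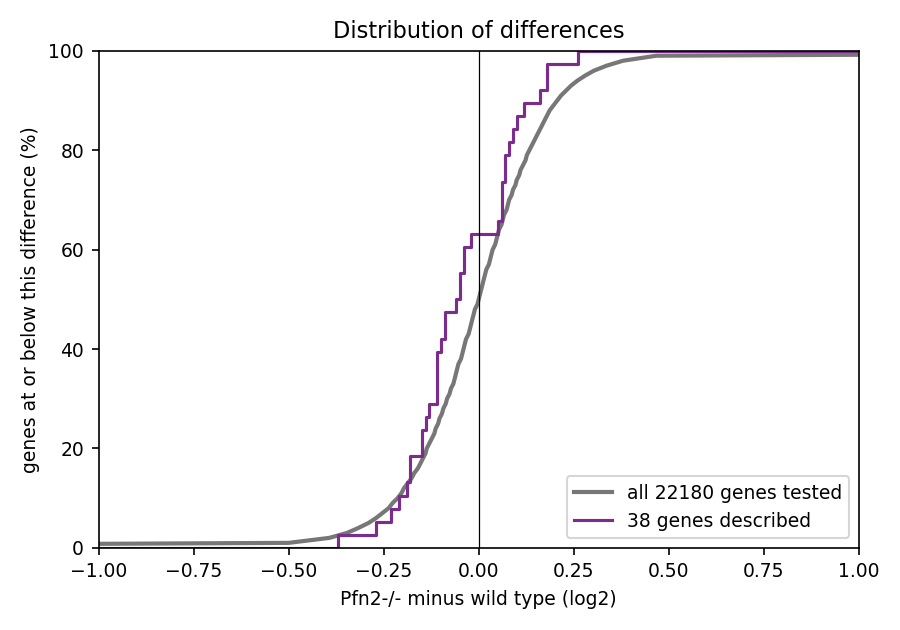
Cumulative share of genes (vertical axis, percent) at or below each difference, Pfn2-/- minus wild type on the log2 scale (horizontal axis), for the 38 measured members and for all 22180 genes tested. The members run from -0.37 to 0.26 with a median of -0.06, while the line of all genes crosses 50% near 0 and has longer tails, which leave the axis.

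**Figure D4:**
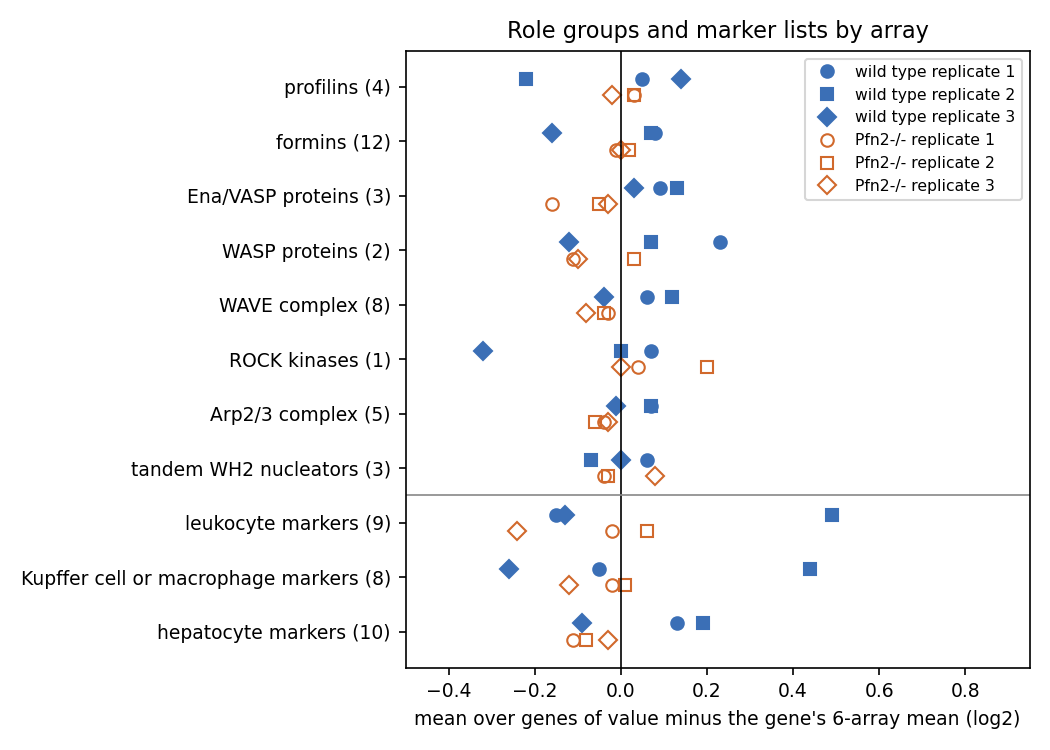
Mean over the genes of a group of each value minus the gene's mean over 6 arrays (log2, horizontal axis), 1 symbol per array, for 8 role groups and 3 lists of cell type markers, with the number of measured genes in brackets. Wild-type replicate 2 stands at 0.49 for leukocyte markers, and no role group lies farther from 0 than the -0.32 of Rock1 on wild-type replicate 3.

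No other gene around this machinery passed the test. Of 53 further genes listed, among them Arp2/3 regulators, paralog subunits, formins and genes of the actin monomer pool, 50 were measured. By limma 0 passed an adjusted p of 0.05, against 0% of all genes tested. At an unadjusted p under 0.05 there were 0, against 5.29%. The groups did not overlap for 4 of them (8%, against 9.85% of all genes tested), Arpin, Gmfb, Cfl1 and Cap1. Differences lay below 0 for 34 (68%, against 49.9%), with a median of -0.05. The smallest p belonged to Grid2ip, a formin known from cerebellum, at 4.30, 4.44 and 4.48 in wild type and 4.88, 4.40 and 5.07 in Pfn2-/- (0.38, SE 0.17, adjusted p = 0.92 by limma). Arpin, an inhibitor of Arp2/3, lay at 6.03, 6.01 and 5.95 against 5.88, 5.81 and 5.57 (-0.24, SE 0.13). Coro1c, a coronin that binds Arp2/3, lay at 6.45, 6.35 and 6.53 against 6.42, 5.89 and 6.13 (-0.30, SE 0.15).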

How the data were processed

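Total RNA of 6 snap-frozen mouse livers was hybridised to Affymetrix arrays after labelling with a WT PLUS kit, per the labels' protocols. The authors deposited log2 expression values made with RMA, per the submitters' processing notes, which also name limma. The sources used here do not state versions or probe set level. RMA sets arrays to a common distribution, which removes shifts shared by all genes. Arrays give no read depth, and their number limits the precision.

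Of 34390 rows, 23521 carried 1 symbol in the platform annotation, 1814 several and 9055 were not listed. The brightest row per gene was kept (22180 genes). Genotype was fitted with limma 3.58.1 in R 4.3.3 (lmFit, eBayes, two-sided, Benjamini-Hochberg over all genes). The fit was also run on simulated data with changes larger than any member difference, so that run says nothing about finding smaller ones. Groups of 3 were not screened for single outlying arrays. Members, roles and lists were chosen with earlier results of these data known. Values on every array were given for profilins, for the member of smallest p in each role and for members whose groups did not overlap, and for further members of each role. Fmnl1 and Was were set beside leukocyte markers after their values were seen. Alternatives were median centring, repeated quantile normalization, cyclic loess, the mean of a gene's rows or every row tested, trended or robust eBayes, a replicate block, array weights, filters on dim genes and leaving out each array.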

Additional observations from a re-analysis of the deposited data

How the results depend on the processing

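Under all 17 alternatives run, 0 members passed an adjusted p of 0.05, and the members' median difference stayed between -0.09 and -0.04. Over all genes, the count past that threshold was 0 in the main comparison, 2 with array weights, 7 with the replicate block and 0 to 6 when single arrays were left out. At an unadjusted p under 0.05 there was 1 member, Wasf1, with median centring, repeated quantile normalization, cyclic loess or array weights (5.42%, 5.25%, 5.24% and 7.22% of all genes), and 0 to 2 when single arrays were left out (4.02% to 7.03% of all genes). These were Abi2 and Was without wild-type replicate 3, Fhod3 without Pfn2-/- replicate 1 and Wasf1 without Pfn2-/- replicate 3. Of the other pathway genes there was 1 with array weights, 2 with the replicate block (5.73% of all genes) and 0 to 2 without single arrays. The cause was not tested. Over all genes, 1174 were at an unadjusted p under 0.05, and 682 with the filter at the median, which tested 11088 genes.

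The sign of 23 members was the same throughout, though leaving out an array moved the difference by over 1.5 times in 21 of them, the exceptions being Fmn2 and Fhod1. That of 15 turned without single arrays, and under no other alternative, with ranges of -0.02 to 0.19 for Pfn1, -0.12 to 0.18 for Pfn3, -0.11 to 0.21 for Pfn4, -0.15 to 0.03 for Diaph1, -0.01 to 0.13 for Diaph2, -0.05 to 0.36 for Diaph3, -0.03 to 0.28 for Daam1, -0.40 to 0.06 for Fmnl1, -0.25 to 0.03 for Fmnl2, -0.09 to 0.17 for Inf2, -0.01 to 0.10 for Nckap1, -0.12 to 0.04 for Abi1, -0.10 to 0.01 for Arpc2, -0.17 to 0.01 for Arpc4 and -0.17 to 0.08 for Spire2. Same-numbered animals share an age, but their deviations from the group means correlated at -0.08, 0.16 and 0.02 across genes, so the numbers were not taken to pair them. Rows that crossed the array median or lay below it limit what could be seen for 10 members. The rows of Fhod1, at 4.42 to 4.66, and Was, with a lowest value of 4.43, lay close above it. The filter at the median used another bound, the median of the gene means (4.72), and tested 26 of the 38. Fhod1 and Was were among those it left out.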
